A study of Mus musculus with 24 samples.

Results

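Genomic imprinting is the expression of a gene from the maternal or the paternal copy only. At many imprinted genes, though not all, it is set by DNA methylation that the maternal or the paternal germ line places on a control region. Where the embryo then keeps that methylation, the control region in bulk tissue is known to hold a methylated and an unmethylated allele. The 7 genes described here, Nnat, Blcap, H13, Mcts2, Zdbf2, Gpr1 and Sfmbt2, form 4 imprinted domains on mouse chromosomes 1 and 2. Their members in the data were the 80 fragments that the authors' annotation assigned to one of these gene names, out of 65535 fragments in the deposited table. Of these 80 fragments, 11 lay on chromosome 1 and 69 on chromosome 2.

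RRBS, bisulfite sequencing of a reduced part of the genome, was measured in BAT, the heat-producing brown fat, of female C57BL/6J mice at postnatal day 12. The VEH group held 12 libraries from litters whose dams received olive oil by gavage, and the DDT group 12 libraries from litters whose dams received the insecticide DDT, as its p,p' and o,p' isomers together, from gestation into early lactation, by the same route. Each library was BAT pooled from female littermates, so the replicate was the litter. RRBS cuts DNA with MspI at CCGG and reads the ends of short fragments after bisulfite treatment. The methylation level of a fragment is the percentage of its CpG calls that were methylated, and it was used in a library with at least 10 calls.

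Mcts2, a retrogene whose family promotes translation re-initiation, lies in an intron of H13, which encodes signal peptide peptidase. Nnat, which encodes the small endoplasmic reticulum protein neuronatin, lies in an intron of Blcap, the bladder cancer associated protein gene. Both inner genes are known to be expressed from the paternal copy, with maternal methylation at their starts. Zdbf2, a zinc finger gene, is also paternally expressed, and its neighbour Gpr1 encodes a receptor for the adipokine chemerin. The long Zdbf2 transcript starts inside Gpr1, at a site whose germline mark is known to be transient. Sfmbt2, a Polycomb group gene, is known for imprinted expression in the placenta.

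The fragments at the Mcts2 and Nnat starts carried the measurements on which most of the comparisons below rest, and their sequences, from the RefSeq GRCm38.p6 genome, plus strand, are given first. In this first set the capitals mark the CpG sites, where methylation was read. The Mcts2 fragment is at chr2:152686813-152686853, and the Nnat fragments are at chr2:157559574-157559608 and chr2:157560274-157560310.
Mcts2, centre 315 bp before the start: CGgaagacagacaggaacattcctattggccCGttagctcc
Nnat, centre 487 bp before the start: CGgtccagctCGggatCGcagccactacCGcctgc
Nnat, centre 214 bp after the start: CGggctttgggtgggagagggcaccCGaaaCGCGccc

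The second set is the neighbour of each of these starts that holds the hexamer TGCCGC, the core of the motif bound by ZFP57, a zinc finger protein known to keep methylation at imprinted control regions. Capitals here mark that hexamer only. The positions are chr2:152686854-152686978 for Mcts2 and chr2:157560311-157560476 for Nnat, each directly next to a fragment shown above.
Mcts2, centre 232 bp before the start: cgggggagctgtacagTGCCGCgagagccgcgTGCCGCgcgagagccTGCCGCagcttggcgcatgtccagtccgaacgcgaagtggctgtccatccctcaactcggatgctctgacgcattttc
Nnat, centre 315 bp after the start: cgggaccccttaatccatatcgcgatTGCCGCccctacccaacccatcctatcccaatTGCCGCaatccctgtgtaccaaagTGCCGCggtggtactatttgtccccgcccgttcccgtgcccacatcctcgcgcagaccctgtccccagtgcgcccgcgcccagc

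Both fragments held 3 matches, all on the plus strand. The hexamer TGCCGC and its reverse complement GCGGCA were searched in every fragment of the table. A match was in 4.29% of all fragments and in 7 of the 80 member fragments, namely 4 of Nnat, 2 of H13 and 1 of Mcts2. At least 3 matches were rare: 22 fragments held as many, which is 0.0336% of the table, and the Mcts2 and Nnat fragments were 2 of them. Among fragments within 10 bp of their length, 0.0642% held as many as the Mcts2 fragment and 0.0368% as many as the Nnat fragment. The hexamer contains a CpG and both fragments hold 15 CpG sites, but these shares were not matched for CpG content. The other 14 tested fragments with at least 3 matches, outside the members, had mean levels of 1.79 to 18.5%, and the Mcts2 fragment was the only tested one with a level between 30 and 70%. In the RefSeq promoters of chromosomes 1 to 3, from 250 bases before to 50 after a start, 10.96% of 6498 held the hexamer. It was in 3 of 10 promoters of the member genes, once each in those of Mcts2 and Nnat and 3 times in that of the long Zdbf2 transcript.

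Coverage decided how much of each domain could be measured. Tests needed a level in 8 or more libraries per group, a condition met by 15 of the 80 member fragments (18.8%) and by 30.9% of all fragments. Nnat had 5 tested fragments of 27, H13 3 of 14, Mcts2 3 of 8, Gpr1 3 of 6 and Sfmbt2 1 of 19. None of the 5 Zdbf2 fragments and not the single Blcap fragment was tested. The tested member fragments had a median length of 56 bp and the untested ones of 140 bp, and 44 member fragments had a level in no library. A library had 5680 to 10966 calls in the 80 member fragments, out of 8371958 to 14124652 calls in the table.

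**Figure D1:**
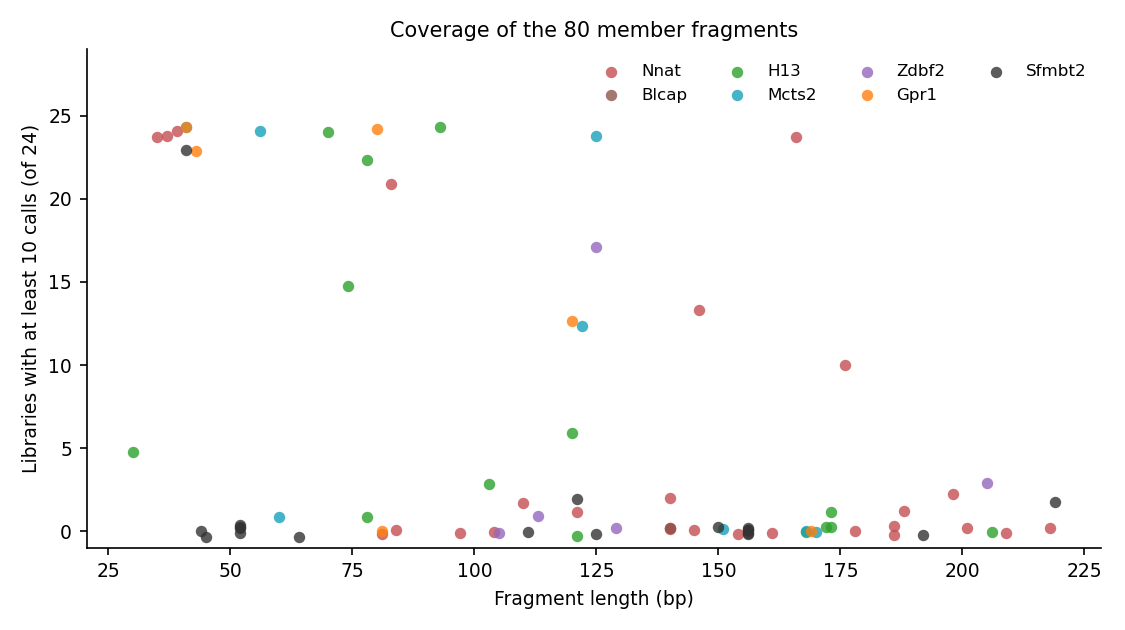
Each point is 1 of the 80 member fragments, with its length in bp on the x axis and the number of libraries with at least 10 calls, of 24, on the y axis, shifted slightly to separate points; colours are genes. Most fragments with a level in over 20 libraries are short, and the Sfmbt2 fragments lie at 0 except for 1 at 23 libraries and 2 with few libraries.

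DDT replicates 4 and 12 stood apart at the member fragments. DDT replicate 4 had a level at 12 of the 15 tested member fragments, and at 10 of them it lay outside the range of the VEH libraries. DDT replicate 12 lay outside that range at 8 of 15. Its library number in the deposited labels also stands apart, since those of all other libraries run consecutively. The labels do not say why, and whether it was prepared or sequenced apart was not tested. The other DDT libraries lay outside at 0 to 6, and the VEH libraries, each set against the other 11, at 0 to 5. Over all tested fragments the shares outside were 78.3% for DDT replicate 4, 44.7% for DDT replicate 12, 10.2 to 34.5% for the other DDT libraries and 9.96 to 22.5% for the VEH libraries. In DDT replicate 4, 45.8% of the tested fragments with a level were at exactly 0 or 100%, against at most 9.88% in any other library. The part of these libraries in the results was not tested, and values are given below with and without them.

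The Mcts2 start had the level nearest to 50% among all tested member fragments. At chr2:152686813-152686853, in the core of a CpG island, intronic in H13 and before Mcts2, the VEH libraries had a lowest level of 44.5%, a median of 51.8% and a highest of 56.8%. The DDT libraries had 41.9, 49.6 and 56.8%. The ranges of the groups overlapped almost fully, and even DDT replicate 4, at 49.5% of 212 calls, lay within the VEH range here. Means for VEH and DDT were 50.7% ± 3.82 and 49.0% ± 4.41 (SD, n = 12 each), from 168 to 645 calls per library. The difference was -1.70 percentage points with a 95% interval of -5.20 to 1.79 (ANOVA p = 0.323, adjusted p = 0.869, permutation p = 0.316). Without DDT replicates 4 and 12 it was -1.32.

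The next fragment, chr2:152686854-152686978, was more methylated than its neighbour in all 24 libraries. It had a lowest level of 53.1%, a median of 67.5% and a highest of 80% in VEH, and 59.8, 70.7 and 100% in DDT. The value of 100% was DDT replicate 4, from 103 calls, and the other libraries of both groups overlapped. Means for VEH and DDT were 68.7% ± 8.80 and 71.2% ± 10.3 (SD, n = 12 each), and DDT minus VEH was 2.50 percentage points with an interval of -5.59 to 10.6 (ANOVA p = 0.528, adjusted p = 0.891, permutation p = 0.546). Without DDT replicates 4 and 12 the difference was 0.290. Within a library this fragment exceeded the one beside it by 18.0 ± 7.52 percentage points in VEH and by 22.2 ± 9.93 in DDT (SD, n = 12 each). Its average over the groups, 69.97%, was just inside the window of 30 to 70% that was taken as intermediate. Reads were shorter than this fragment of 125 bp, so its level comes from CpG sites near its ends. Not all of its 3 hexamers were read in full.

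Another fragment reached the Mcts2 start itself, at chr2:152687026-152687147, and had too few calls for a test. It had a level in 7 VEH libraries, from 56.0 to 100% with a median of 84.2%, and in 5 DDT libraries, from 70 to 100% with a median of 72.7%. Far upstream, at chr2:152658244-152658299 and outside any GENCODE gene, a fragment assigned to Mcts2 was methylated throughout, at 97.3% ± 0.596 (SD) in the 12 VEH libraries and 97.3% ± 1.29 in the 12 DDT libraries.

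H13 itself, around Mcts2, had tested fragments at high and at low levels and none between. The 2 fragments that the authors placed in introns were high, although the second also overlaps an exon of H13 in GENCODE. At chr2:152693977-152694046 the means were 82.9% ± 5.04 in VEH and 83.1% ± 8.05 in DDT (SD, n = 12 each), and at chr2:152696143-152696220 they were 91.2% ± 2.63 (SD) in the 12 VEH libraries and 86.7% ± 8.80 in the 10 DDT libraries. The latter differed by -4.55 percentage points with an interval of -10.1 to 1.0004 (ANOVA p = 0.103, adjusted p = 0.869). Without DDT replicates 4 and 12 the difference was -3.36, and without DDT replicate 2, which was lowest at 66.1%, it was -2.27.

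The third H13 fragment, at chr2:152707743-152707835 on an exon with UTR sequence 38.3 kb after the start, was low. VEH libraries ran from 0 to 17.2% with a median of 6.97%, and DDT libraries from 0 to 15.6% with a median of 2.01%. The groups overlapped over nearly their whole range, although 11 of 12 DDT libraries lay below the VEH median. The difference was -4.09 percentage points, with an interval of -8.77 to 0.586 (ANOVA p = 0.0833, adjusted p = 0.869, permutation p = 0.0839), and without DDT replicates 4 and 12 it was -3.55. An untested exonic fragment in its 3′ part, chr2:152706353-152706426, varied widely between libraries, from 25 to 80% in 9 VEH libraries and from 7.14 to 66.7% in 6 DDT libraries.

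At Nnat the level changed sharply over a short distance. The fragment before the start, chr2:157559574-157559608, lay on the shore of the CpG island and in a Blcap intron, and had 63 to 3228 calls per library. The VEH libraries ran from 44.4 to 73.1% with a median of 64.8%, and the DDT libraries from 4.90 to 70.7% with a median of 56.1%. DDT replicate 4, at 4.90%, and DDT replicate 12, at 27.0%, were far below the rest, and the other 10 DDT libraries overlapped the VEH libraries. Means were 62.0% ± 8.02 (SD) in the 12 VEH libraries and 51.9% ± 19.0 in the 12 DDT libraries. The difference was -10.0 percentage points with an interval of -22.4 to 2.35 (ANOVA p = 0.107, adjusted p = 0.869, permutation p = 0.102). Without those 2 libraries it was -2.82, with an interval of -10.1 to 4.49.

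After the Nnat start, chr2:157560274-157560310 was the more methylated of a directly adjoining pair. Its VEH libraries ran from 71.1 to 82.2% with a median of 77.8%, and its DDT libraries from 1.29 to 87.0% with a median of 76.1%. All DDT libraries but replicate 4, which was at 1.29% of 309 calls, were over 70%. The means were 77.5% ± 3.16 (SD) in the 12 VEH libraries and 71.6% ± 22.5 in the 12 DDT libraries. The difference was -5.84 percentage points with an interval of -19.4 to 7.73 (ANOVA p = 0.382, adjusted p = 0.869), and without DDT replicates 4 and 12 it was -0.345 with an interval of -2.96 to 2.28.

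The second fragment of that pair, chr2:157560311-157560476, which holds the 3 hexamers shown above, was low. Reads were shorter than this fragment of 166 bp, so its level comes from CpG sites near its ends. Not all 3 hexamers were read. VEH libraries ran from 9.37 to 17.2% with a median of 14.4%, and DDT libraries from 0 to 20.3% with a median of 13.01%. The value of 0 was DDT replicate 4, from 703 calls, and the groups otherwise overlapped. The means were 13.9% ± 2.96 (SD) in the 12 VEH libraries and 12.6% ± 5.04 in the 12 DDT libraries, with an interval for the difference of -4.84 to 2.15 percentage points (ANOVA p = 0.433, adjusted p = 0.874). Within a library the first fragment exceeded the second by 63.5 ± 3.48 percentage points (SD, n = 12) in VEH, and the order was the same in all 24 libraries. It was smallest in DDT replicate 4, where both were near 0 and the gap was 1.29 points.

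**Figure D2:**
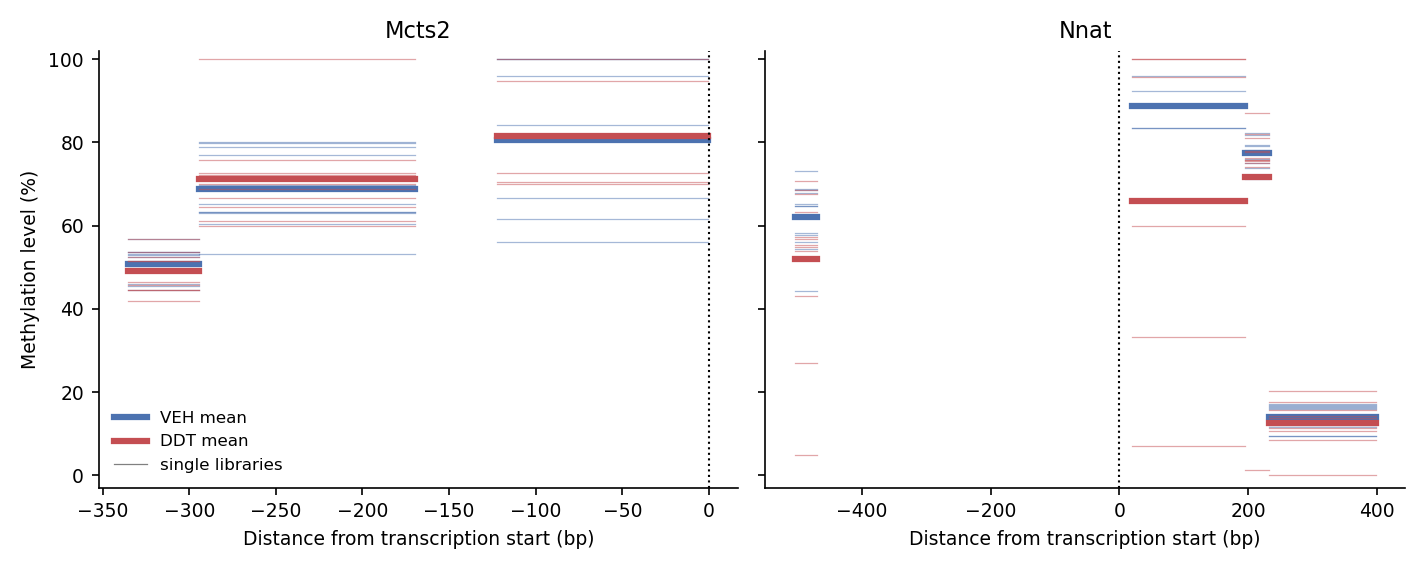
The x axis is the distance from the transcription start in bp and the y axis the methylation level in percent; thin lines are single libraries, each drawn over the length of its fragment, and thick lines are the means of VEH (blue) and DDT (red). The level rises towards the Mcts2 start, from about 50.7 to 68.7% in VEH, and falls after the Nnat start, from 77.5 to 13.9% in VEH.

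**Figure D3:**
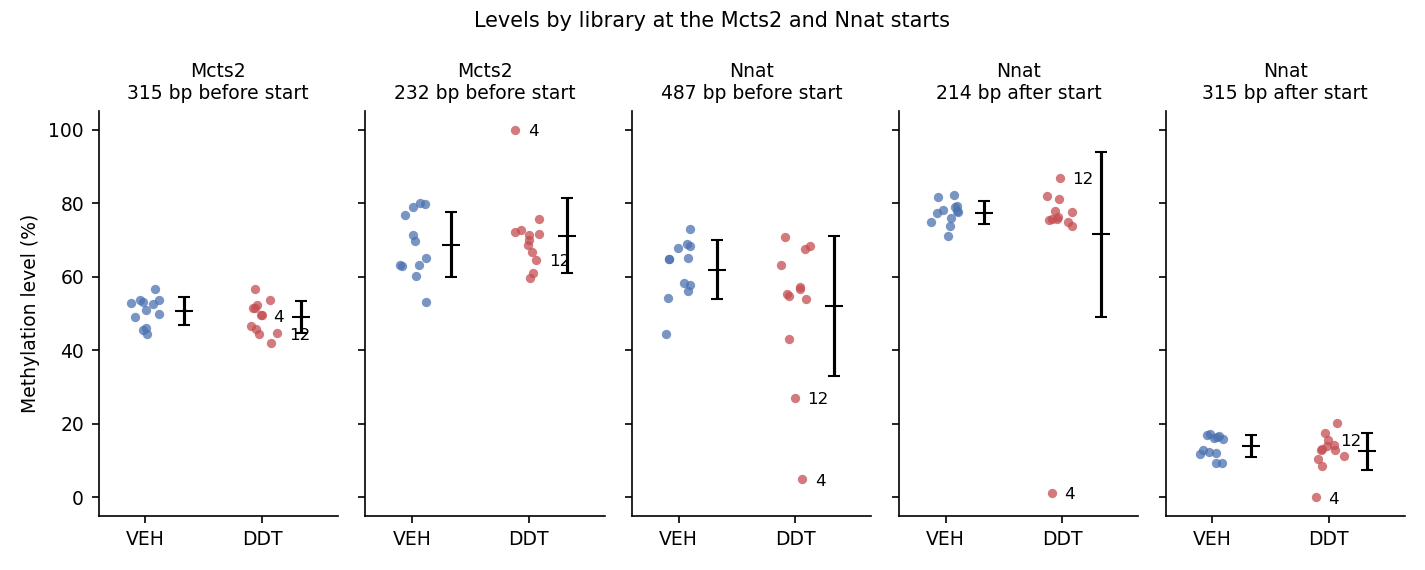
Each panel is 1 tested fragment within 1000 bp of the Mcts2 or Nnat start; points are the 12 VEH and 12 DDT libraries, the y axis is the methylation level in percent, and bars beside the points are the mean and SD. DDT replicates 4 and 12 are numbered: replicate 4 is at 100% in the second Mcts2 fragment and at 4.90, 1.29 and 0% in the Nnat fragments, apart from the other libraries.

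The fragments farther from Nnat were at intermediate to high levels. At chr2:157513882-157513964, intergenic and 46.2 kb before the start, the means were 58.7% ± 11.6 (SD) in the 11 VEH libraries and 55.4% ± 19.3 in the 10 DDT libraries. It has 1 CpG and few calls, and the DDT libraries spread from 29.2 to 99.5% while VEH spread from 43.8 to 78.4%. DDT replicate 4 was the highest and DDT replicate 12 the lowest of the DDT libraries. The difference was -3.30 percentage points with an interval of -17.7 to 11.1. It was -8.20 without DDT replicate 4, -0.389 without DDT replicate 12 and -5.53 without both. At chr2:157472436-157472474, 87.6 kb before the start, the means were 72.7% ± 2.41 and 70.6% ± 5.66 (SD, n = 12 each), an average of 71.6%, just outside the window taken as intermediate.

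All 5 tested Nnat fragments had lower means in DDT, and all 5 kept that sign without DDT replicates 4 and 12, at -0.237, -5.53, -2.82, -0.345 and -0.397 percentage points in genomic order. Over all tested fragments 56.9% had a lower mean in DDT, and the Nnat fragments share libraries and lie in one domain, so that the 5 are not separate observations. Untested Nnat fragments with a level in at least 10 libraries were at chr2:157514049-157514194, with 51.7 to 73.9% in 7 VEH and 16.7 to 70% in 6 DDT libraries, and at chr2:157560098-157560273 over the first exon, with 83.3 to 95.8% in 4 VEH and 6.98 to 100% in 6 DDT libraries. The 1 Blcap fragment, chr2:157558163-157558302 on an exon with UTR sequence, had 32 methylated of 61 calls over all libraries and a level in none.

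In the Zdbf2 and Gpr1 domain no tested fragment was intermediate. The 3 tested ones were assigned to Gpr1 but lay 33.9 to 34.0 kb before its start, on exons of the noncoding gene 1700039I01Rik, and all were low. The fragment chr1:63248486-63248565 was the only tested member fragment with an unadjusted p under 0.05. It is CpG rich, with CpG sites in capitals:
Gpr1, centre 34.0 kb before the start: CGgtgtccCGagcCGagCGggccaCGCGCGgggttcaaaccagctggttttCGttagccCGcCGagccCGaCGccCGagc
VEH libraries ran from 1.79 to 10.9% with a median of 4.13%, and DDT libraries from 0 to 5.04% with a median of 2.85%. The groups overlapped, with 10 of 12 DDT libraries below the VEH median. The means were 4.48% ± 2.40 and 2.68% ± 1.49 (SD, n = 12 each). The difference was -1.80 percentage points with an interval of -3.49 to -0.107 (ANOVA p = 0.0382, adjusted p = 0.869, permutation p = 0.0271), and without DDT replicates 4 and 12 it was -1.61 with an interval of -3.40 to 0.171.

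Its neighbours had smaller differences, whose sign depended on single libraries. At chr1:63248374-63248414, with 275 to 2083 calls per library the fragment with the most calls of Gpr1, the means were 5.52% ± 0.967 and 5.68% ± 1.80 (SD, n = 12 each; difference 0.156, interval -1.07 to 1.38 percentage points), and the difference was 0.469 without DDT replicates 4 and 12, -0.00918 without DDT replicate 12 and -0.0232 without VEH replicate 11. At chr1:63248443-63248485 they were 6.84% ± 3.79 (SD, n = 12) and 7.53% ± 4.63 (SD, n = 11), a difference of 0.692 that was -0.490 without DDT replicate 12, which was at 19.4% of 31 calls. None of these differences was tested against another.

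The first exon of the long Zdbf2 transcript in RefSeq held an untested fragment that the authors assigned to a Gpr1 intron, chr1:63200437-63200556. It was methylated in every library with a level, at 85.7 to 100% in 7 VEH libraries and 81.3 to 100% in 6 DDT libraries, and 424 of its 450 calls over all libraries were methylated. The start of the shorter Zdbf2 transcript was the reverse. Its untested fragment chr1:63273032-63273156, centred 171 bp before the start, had 13 methylated of 448 calls, with medians of 0 in 10 VEH and in 7 DDT libraries. The island behind it held 5 tested fragments that the authors assigned to AL669947.1, and their means were 1.499 to 8.24% in VEH and 1.64 to 7.51% in DDT. The fragments at the long and the short transcript were at opposite ends of the scale. Between them, chr1:63266305-63266509, 6.86 kb before the shorter transcript, had 50 methylated of 98 calls over all libraries. It had a level in 3 VEH libraries only, at 0, 30 and 40%, which hold only part of these calls.

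Sfmbt2 was measured at 1 fragment, chr2:10568355-10568395, which has 1 CpG at its first bases and reaches into a coding exon 198 kb after the gene's start. VEH libraries ran from 6.86 to 19.6% with a median of 9.72%, and DDT libraries from 4.35 to 13.97% with a median of 11.3%. The groups overlapped. The means were 10.7% ± 3.39 (SD, n = 12) and 10.98% ± 2.77 (SD, n = 11), a difference of 0.274 percentage points with an interval of -2.43 to 2.98 (ANOVA p = 0.835, adjusted p = 0.968). Near the Sfmbt2 start the fragments were assigned by the authors to AL772216.6. Its 5 tested ones lay on the shelf or shore of a CpG island, whose core was not tested, and had means of 1.10 to 8.60% in VEH and 4.64 to 7.83% in DDT.

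Of the other Sfmbt2 fragments, 12 had no call in any library, against 24.5% of all fragments in the table. Of these 12, 9 lay side by side in an intron, at chr2:10553834-10554821, where fragments of 156 and 52 bp alternate with a repeat unit of 208 bp. The 4 fragments of 52 bp had 2 distinct sequences, shown with CpG sites in capitals, which differ by T14A counted from the first base. The 5 of 156 bp were 94.2 to 99.4% identical to each other.
Sfmbt2 repeat, chr2:10553990-10554041: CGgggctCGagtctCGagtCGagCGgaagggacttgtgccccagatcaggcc
Sfmbt2 repeat, chr2:10554198-10554249: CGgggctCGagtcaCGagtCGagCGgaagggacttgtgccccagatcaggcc
Reads that could come from several copies have no unique place in the genome, and whether this left the repeat without calls was not tested.

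Against the whole table, the members were more often intermediate: 4 of 15 tested member fragments (26.7%) and 9.84% of all 20225 tested fragments had an average level of 30 to 70%. No test was made, since the members are known imprinted genes. Of the tested members, 6 were under 20% and 5 over 70%, against 61.1% and 25.7% of all tested fragments. The mean of the 2 intermediate fragments of the H13 and Mcts2 domain was 59.7% ± 5.64 in VEH and 60.1% ± 6.14 in DDT (SD, n = 12 each), and 59.2% ± 4.24 (SD, n = 10) in DDT without replicates 4 and 12, where the difference turned from 0.400 to -0.513. That of the Nnat and Blcap domain was 60.6% ± 6.97 in VEH and 54.3% ± 11.2 in DDT (SD, n = 12 each), and 57.1% ± 8.13 (SD, n = 10) in DDT without replicates 4 and 12. Both of its fragments belong to Nnat. The distant one had a level in 11 VEH and 10 DDT libraries, so the remaining libraries entered with 1 fragment. DDT replicate 4 entered as the mean of 4.90 and 99.5%, which hides how far both lay from the other libraries.

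The spread between VEH litters differed between the intermediate fragments. For all 1991 intermediate fragments of the table the SD between VEH libraries had a median of 5.64 percentage points. The first Mcts2 fragment, at 3.82, had a smaller SD than most, with 29.9% of them below it. The second Mcts2 fragment, at 8.80, the Nnat fragment before the start, at 8.02, and the distant Nnat fragment, at 11.6, had larger ones, with 73.7, 68.9 and 88.0% of them below. Sampling of the calls alone would give a binomial SD of 2.25, 2.78, 1.36 and 9.44 percentage points for these 4 in the same order, so the distant Nnat fragment varied 1.23 times as much as its calls imply and the one before the start 5.88 times. Calls of one read or of PCR copies are not independent, which that SD does not count.

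**Figure D4:**
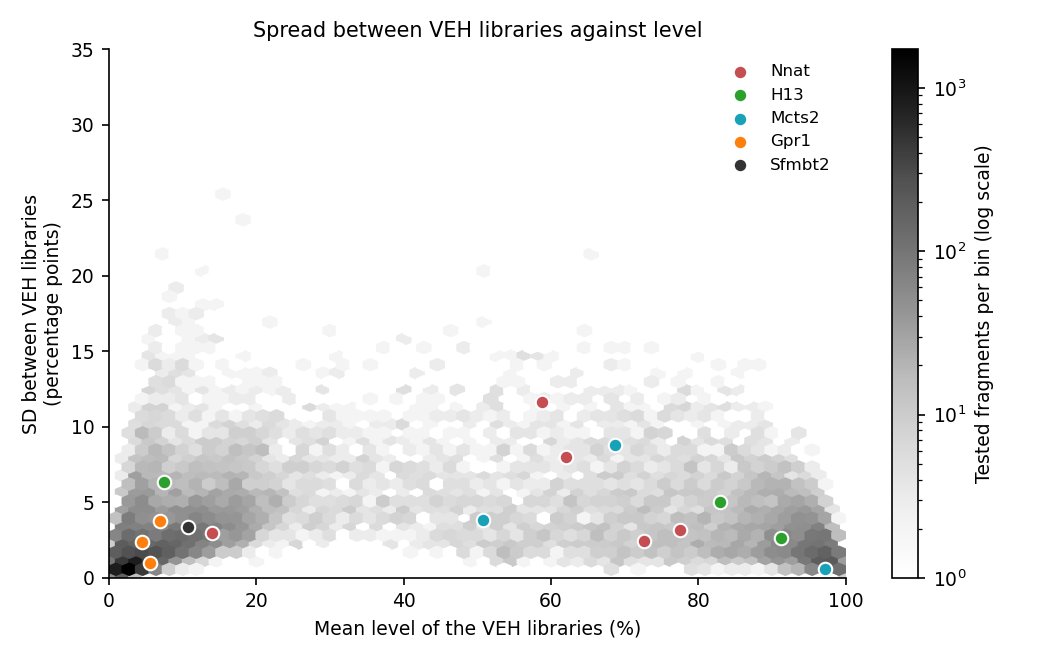
Grey bins are the 20225 tested fragments, darker where more fragments fall on a log scale, with the mean level of the VEH libraries in percent on the x axis and the SD between VEH libraries in percentage points on the y axis; coloured points are the 15 tested member fragments. Among the intermediate members the first Mcts2 fragment, at 50.7%, has the smallest SD, 3.82, and the distant Nnat fragment the largest, 11.6.

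No member fragment was called between DDT and VEH. With the ANOVA F test and Benjamini-Hochberg adjustment over all 20225 tested fragments, 0 of 15 passed an adjusted p of 0.05, as did 0% of all tested fragments, and the smallest adjusted p of a member was 0.869. At an unadjusted p under 0.05 there was 1 member of 15 (6.67%), against 4.18% of all tested fragments. A quasi-binomial regression and limma also called 0 members, with 2 and 0 of them at an unadjusted p under 0.05, against 7.72 and 3.51% of all tested fragments. Of the 15 differences 9 were negative, and over all tested fragments 56.9% were. The median of the 15 was -1.70 percentage points against -0.163 over all tested fragments. These medians cover unlike levels, since 61.1% of all tested fragments but 6 of 15 members were under 20%. They were not matched for level. Without DDT replicates 4 and 12, 12 of 15 were negative, but the middle value was only -0.397. Neither the median nor the share of negative differences over all tested fragments is given without these libraries. With all libraries, the intervals reached from 0.850 to 14.4 percentage points to each side. The widest were at the Nnat fragments 46.2 kb and 487 bp before and 214 bp after the start, and at the last of these the interval narrowed to 2.62 points to each side without DDT replicates 4 and 12. A level of bulk tissue mixes both alleles, all cell types and the pooled pups, and a change on one allele, in some cells or in one pup cannot be told apart.

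**Figure D5:**
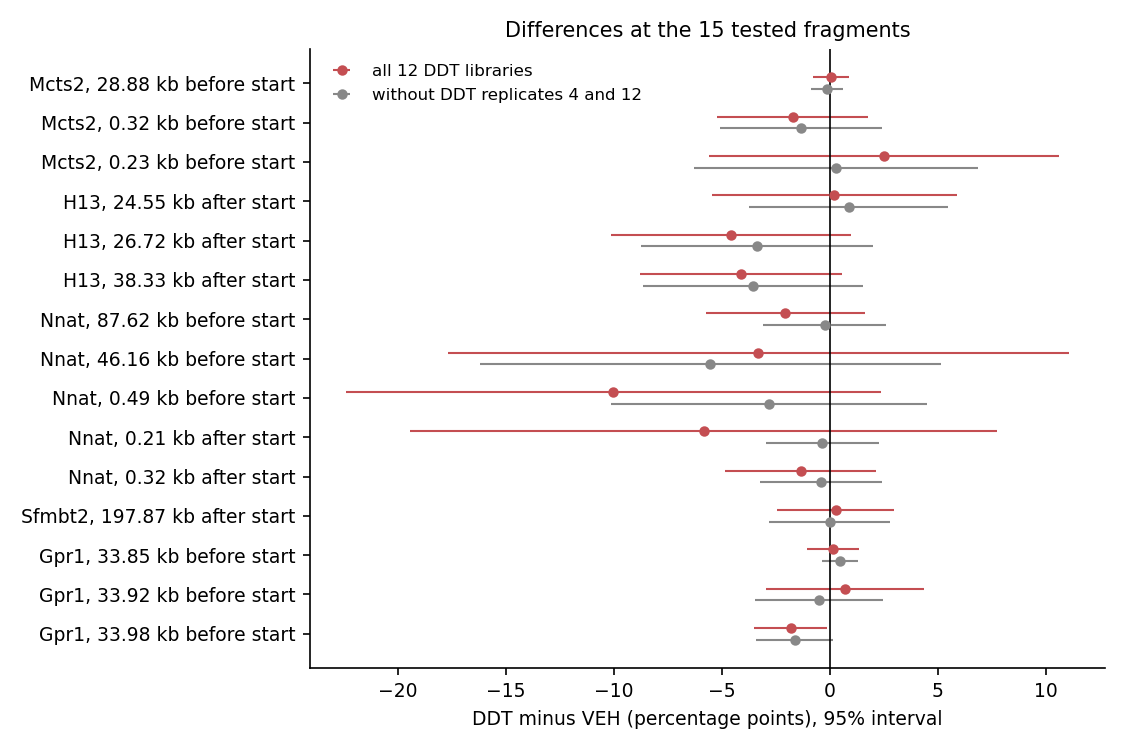
Points are the difference in mean level, DDT minus VEH in percentage points, of the 15 tested fragments, with 95% intervals from the ANOVA; red uses all DDT libraries and grey leaves out DDT replicates 4 and 12. Every interval but that of 1 Gpr1 fragment, at -1.80, includes 0, and the 3 widest, all at Nnat, are narrower without the 2 libraries.

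Within 50 kb of the member genes lay 106 fragments that the authors assigned to other names, of which 45 were tested. None was called, and 4 (8.89%) had an unadjusted p under 0.05, against 4.18% of all tested fragments, 2 higher and 2 lower in DDT. All 4 are named here after their values were seen. The lower ones were the Defb25 fragment chr2:152636791-152636850, at 39.8% ± 12.2 (SD) in 12 VEH and 27.6% ± 13.003 in 11 DDT libraries (difference -12.2, and -10.0 without DDT replicates 4 and 12; ANOVA p = 0.0303, adjusted p = 0.869), and the Eef1b2 fragment chr1:63177320-63177362, at 3.29% ± 3.79 (SD) and 0.512% ± 0.890 in 11 libraries each (ANOVA p = 0.0284, adjusted p = 0.869). Both higher ones lay in the CpG island next to the RefSeq start of Blcap, in a Blcap intron. That island was assigned to AL672259.1, and all 5 of its tested fragments had higher means in DDT. Over all tested fragments 56.9% had a lower mean in DDT. The 5 lie in one island and share libraries, so they are not separate observations. At chr2:157565935-157565981 VEH libraries ran from 1.34 to 5.78% with a median of 3.17%, and DDT libraries from 3.53 to 13.6% with a median of 5.08%. The groups overlapped. The means were 3.24% ± 1.20 and 6.33% ± 3.37 (SD, n = 12 each), a difference of 3.10 percentage points with an interval of 0.959 to 5.24 (ANOVA p = 0.00653, adjusted p = 0.869, permutation p = 0.00108), and 2.23 without DDT replicates 4 and 12. At chr2:157566144-157566176 the means were 2.79% ± 0.423 (SD, n = 12) and 3.75% ± 1.37 (SD, n = 11; ANOVA p = 0.0321, adjusted p = 0.869).

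Gene lists around the members were counted in the same fit. Of 8 other imprinted genes or transcripts listed for these chromosomes, 5 had tested fragments, 58 in all, and 3 of these (5.17%) had an unadjusted p under 0.05, all lower in DDT. Over all tested fragments 4.18% had such a p, and 70.2% of those were lower in DDT. The median difference of the 58 was -1.57 percentage points, and 32.8% of them were intermediate, against 9.84% of all tested fragments. Of the 24 listed genes next to the members, 20 had 120 tested fragments, with 5 (4.17%) at that p, all lower. Of the 16 listed factors that set, read or keep imprints, 4 had 21 tested fragments, with 1 (4.76%) at that p, lower. No fragment of these lists was called.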

How the data were processed

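The authors trimmed the reads with Scythe and Sickle, aligned them to GRCm38 with Bismark 0.15.0 and Bowtie2, and deposited raw counts of CpG calls, methylated and unmethylated, per MspI fragment and library, with a gene, region and CpG island annotation. The table ends within chromosome 3. All 80 member fragments began at an MspI site. Starts are those of the authors' annotation, and exons and UTRs are from GENCODE M21.

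From these counts, levels were computed where a library had 10 or more calls, and fragments with a level in 8 or more VEH and 8 or more DDT libraries were tested with an ANOVA F test, Benjamini-Hochberg adjustment over all of them and a threshold of 0.05. Single fragments also had a two-sided permutation test with 100000 resamples. All 15 tested members are given. The members and the gene lists were chosen with earlier results of these data known. The tests were checked on simulated calls with known shifts. No simulated library stood apart as DDT replicates 4 and 12 did, so the check does not cover such libraries. Alternatives were a quasi-binomial regression, limma on log2 ratios of methylated to unmethylated calls (1 added to each), other minimums, a depth covariate, the replicate block and libraries left out; leaving out DDT replicates 4 and 12 together, and a minimum of 5 libraries in each group, were chosen after seeing the data. The closest pair of libraries had a mean chi-square of 1.72 a fragment, and no library was counted as a copy of another. The calls hold no expression, so the tissue label was not checked against markers. Python 3.11.15, NumPy 2.4.6, pandas 2.3.3, SciPy 1.17.1, matplotlib 3.10.9, pysam 0.24.0, R 4.3.3 and limma 3.58.1 were used.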

Additional observations from a re-analysis of the deposited data

Results flagged for a closer look

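The fragment just before the shorter Zdbf2 transcript, chr1:63273032-63273156, had 1 library far above the others in each group. VEH replicate 6 was at 21.4% of 28 calls, with the next of 10 VEH libraries at 9.09%. DDT replicate 8 was at 14.3% of 21 calls, with the next of 7 DDT libraries at 3.57%. The rule compares the gap to the nearest library with the range of the group, in groups of 4 to 10 libraries. It was met in 2 of 14 groups. Its cut-offs are set to be met in about 1 in 20 groups of normally distributed values. Both groups that met it had a median of 0%, so that rate does not apply to them and the count cannot be read against it. Groups of 11 or 12 libraries, which most tested fragments have, were not examined by it, so the values of DDT replicates 4 and 12 at Nnat and Mcts2 are given only in the results.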

How the results depend on the processing

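No member was called under any alternative, and each library left out in turn gave 0 calls too. The members at an unadjusted p under 0.05 numbered 1, and 2 with the quasi-binomial regression (the Gpr1 fragment and the low H13 fragment), 0 with limma, 0 with the depth covariate and 0 without DDT replicates 4 and 12; without 1 library they numbered 0 to 2, and 0 without VEH replicate 2, 4, 10, 11 or 12 or DDT replicate 1, 2, 3, 4, 8 or 9. Over all tested fragments 845 had such a p, 1562 with the quasi-binomial regression, 441 of 10399 with a level in all 24 libraries, and 745 to 1067 with 1 library left out. Nothing in the labels says whether libraries of the same replicate number share a day or batch. Deviations of same-number libraries correlated from -0.150 to 0.176, over 0.1 in 3 of 12 pairs, and 1 of 12 VEH libraries correlated best with its own number. Weak correlations cannot exclude a pairing, since litters handled together need not deviate alike. With the replicate block 0 members and 834 of all fragments had an unadjusted p under 0.05. With a window of 40 to 60%, 3 of 15 members were intermediate, against 4.78% of all tested fragments. With 20 to 80% they were 6 of 15, against 17.4%. With a minimum of 5 calls they were 6 of 20, against 9.93%, and with 20 calls 4 of 15, against 9.80%.

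The Nnat and Blcap domain difference ranged from -7.12 to -3.47 over the alternatives and from -7.90 to -3.92 with 1 library left out; that of H13 and Mcts2 from -1.70 to 0.400 and from -0.931 to 1.24. For single fragments 410 of 435 values kept their sign and none passed the adjusted threshold. Without DDT replicates 4 and 12 the sign turned at chr1:63248443-63248485 of Gpr1 (-0.490), at Sfmbt2 (-0.00764) and at the distant Mcts2 fragment (-0.132). With limma it turned at chr1:63248374-63248414 of Gpr1 (-0.0517) and at chr2:157513882-157513964 of Nnat (0.165), both log2 ratios. With 1 library left out, differences crossed 0 at both of these Gpr1 fragments (-0.0232 to 0.606 at the one and -0.490 to 1.42 at the other), Sfmbt2 (-0.0755 to 1.08), H13 chr2:152693977-152694046 (-0.821 to 1.85), the distant Mcts2 fragment (-0.187 to 0.205), Mcts2 chr2:152686854-152686978 (-0.113 to 3.54) and Nnat chr2:157560274-157560310 (-7.24 to 0.552, the latter without DDT replicate 4). The causes were not tested. Untested members had a median of 17 calls over all libraries where fewer than 10 libraries had a level.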
